A study of Homo sapiens with 12 samples.

Results

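Ribosome biogenesis and RNA polymerase I were followed through 37 genes chosen by symbol from a list, out of 20323 genes in the deposited table. The symbol LTV1 stood at 2 identifiers, and the one with the higher total count was used. All 37 genes passed the filter on low counts, which kept 12718 genes, and the lowest mean count among them was 349, for RRP9. RNA was sequenced from A549, an established human lung adenocarcinoma line that is commonly described as lacking functional LKB1, the kinase encoded by STK11 that activates AMPK. There were 12 libraries in 4 groups of 3. LKB1-intact cells, whose genotype label is WT, received PBS in the first group and high-dose AA, called VitC in the sample titles, in the next. LKB1-deficient cells received PBS or high-dose AA in the other two. All groups share the A549 background. The labels give no dose or time, do not say how the deficient or intact cells were made or whether a line is 1 clone, and do not say that the replicates were separate cultures. The p-values thus rest on the spread among libraries of a group, and that spread can be technical.

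Ribosomes are built in the nucleolus, where RNA polymerase I transcribes the ribosomal DNA into a long precursor RNA. The factors UBTF and RRN3 help to load the polymerase on the promoter. Small nucleolar ribonucleoproteins (snoRNPs) then modify the precursor, with box C/D particles adding methyl groups and box H/ACA particles converting uridine to pseudouridine. Assembly factors fold and cleave the precursor into the small and large subunits, beginning with the small subunit processome. The pathway takes much of the energy of a growing cell, and in tumour cells it is known as a target of the transcription factor MYC, which binds the E-box CACGTG.

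The libraries held 16055534 to 20306129 estimated counts each. STK11 stood at 23.6 to 25.4 CPM (counts scaled to library size with TMM composition factors) in intact and 4.86 to 6.56 CPM in deficient cells under PBS, a log2 difference of -2.08 ± 0.11 (SE, adjusted p = 1.48e-10), and it was also lower in deficient cells under AA (-1.98), so both sets of libraries matched their genotype labels. The epithelial markers KRT8, KRT18, EPCAM and CDH1 were detected, while KRT19 had at most 9 counts in a library. Scaled to library size, their sum with KRT19 was 2150 to 2230 CPM in intact and 1900 to 2070 CPM in deficient cells under PBS, and 3310 to 3420 and 1820 to 1860 CPM under AA. The leukocyte marker CD3E was at 0 in every library and PTPRC had at most 1 count, PECAM1 at most 4, VWF at most 13, COL3A1 at most 5, DCN at most 4 and PDGFRA at most 1.89. Of the 10 markers of other cell types, CD68, COL1A1 and CDH5 passed the filter on low counts. The mean count of CDH5 was 168 in intact and 126 in deficient cells under PBS, and 69 and 20 under AA. The 3 endothelial markers summed to 9.07 to 10.6 CPM in intact and 6.53 to 9.11 CPM in deficient cells under PBS, against 3.19 to 4.24 and 0.739 to 1.73 CPM under AA. The 3 leukocyte markers summed to 82.3 to 92.5 CPM under PBS and 106 to 114 CPM under AA, and the 4 fibroblast markers to 10.9 to 14.7 CPM over all libraries. The part of these markers in the results was not tested. In bulk RNA, fewer cells of a type and less RNA per cell cannot be told apart.

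Under AA, the 37 genes fell more often than they rose in intact cells, and moved in both directions in deficient cells. In deficient cells 12 rose and 16 fell at an adjusted p under 0.05 in edgeR's quasi-likelihood test, where 37% of all tested genes rose and 37.4% fell. Their median log2 difference was -0.054, beside 0.013 over all tested genes. When counts were scaled by library size only it was 0.0037, beside 0.071 over all tested genes. In intact cells 6 rose and 23 fell, where 34.5% of all tested genes rose and 35.2% fell, and the median was -0.24 beside 0.0069. The response differed between the genotypes for 20 of the 37, where it did for 44.6% of all tested genes: it was higher in deficient cells for 15 and lower for 5, beside 21.6% and 23% of all tested genes. Of all genes called for this difference, 48.4% were higher in deficient cells, and 60.3% were when the deposited FPKM values (fragments scaled by length and depth) were tested. Under PBS none of the 37 was called between genotypes. Together the 37 genes took 0.926 to 0.946% of the counts of a library under PBS, 0.858 to 0.869% in intact cells under AA and 0.982 to 0.996% in deficient cells under AA. NPM1 alone had a mean of 54150 of these counts in a library, so the summed share follows the most abundant genes while the median gives each gene the same weight.

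**Figure D1:**
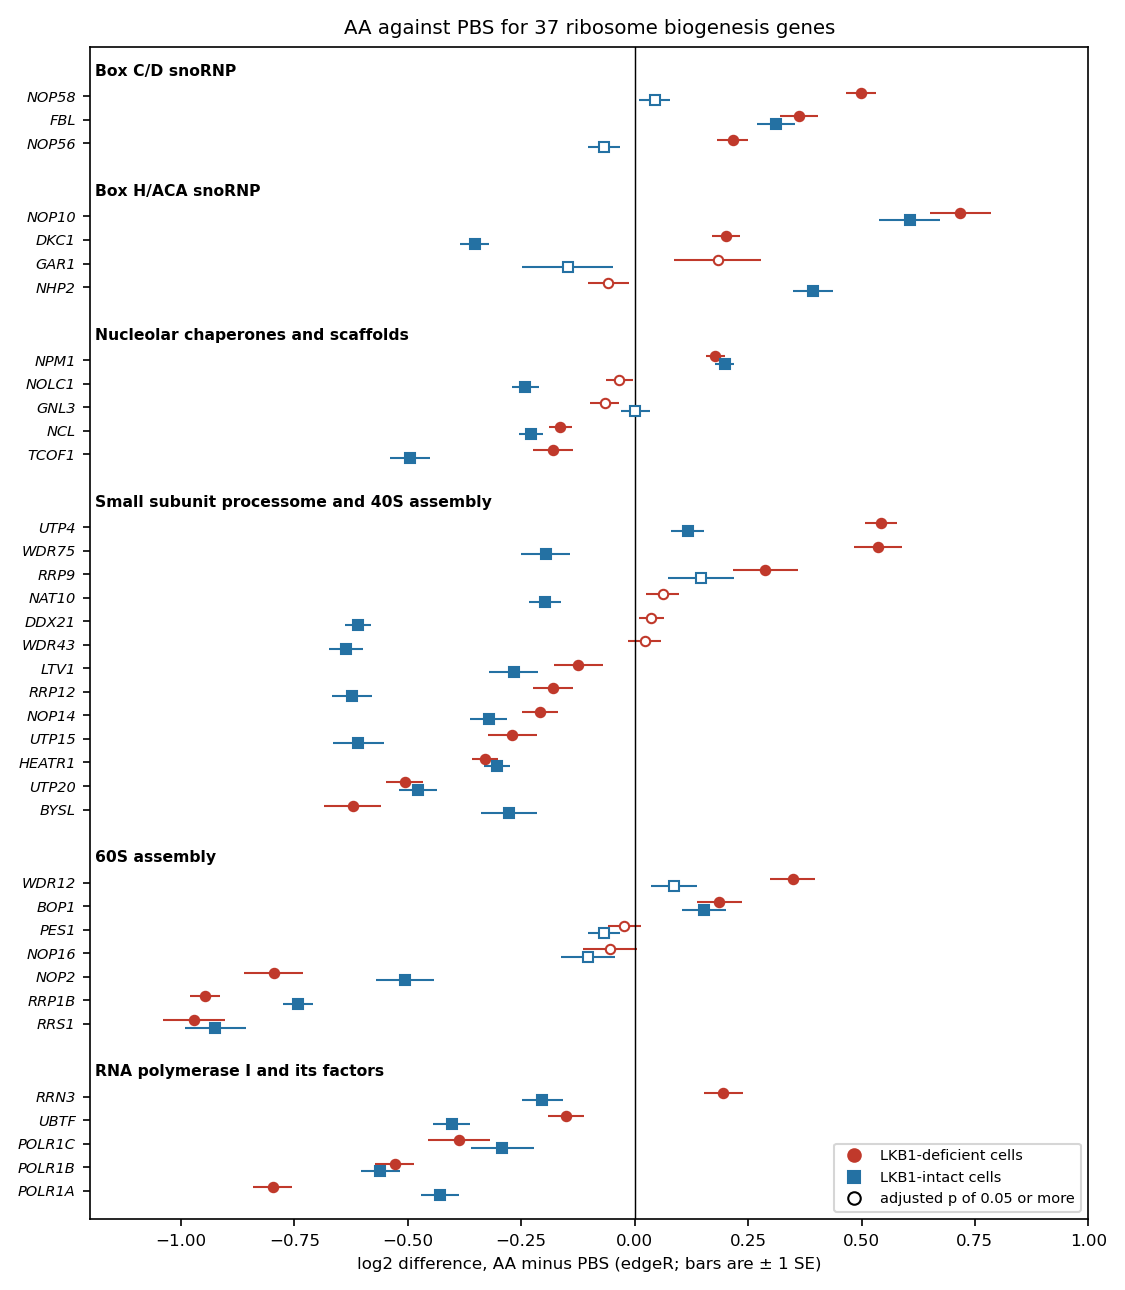
Log2 difference of AA against PBS (x axis) for each of the 37 genes (y axis, grouped by role) in LKB1-deficient and LKB1-intact cells, with bars of 1 SE and filled points for adjusted p under 0.05. In intact cells 23 genes lie to the left of 0 and are called, while in deficient cells 16 do. The values are before the trend with transcript length was removed, which changes the sign for FBL, NPM1 and HEATR1 in both genotypes.

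Gene by gene, 16 of the 37 fell in both genotypes, where 27% of all tested genes did, and 5 rose in both, where 24.6% did. The 16 were the polymerase genes POLR1A, POLR1B and POLR1C with UBTF, the small subunit factors UTP15, UTP20, HEATR1, NOP14, RRP12, BYSL and LTV1, the large subunit factors RRS1, RRP1B and NOP2, and NCL and TCOF1. The 5 were FBL, NOP10, NPM1, UTP4 and BOP1. DKC1, WDR75 and RRN3 rose in deficient and fell in intact cells, which 2.71% of all tested genes did, and none did the reverse, beside 3.19%. NOP56, NOP58, RRP9 and WDR12 were called higher in deficient cells and not called in intact cells. NOLC1, WDR43, NAT10 and DDX21 were called lower in intact cells and not called in deficient cells, and NHP2 was called higher in intact cells alone. GAR1, GNL3, PES1 and NOP16 were called in neither. The call of LTV1 in deficient cells (-0.12, adjusted p = 0.0422) was lost in DESeq2 (adjusted p = 0.0617), on FPKM and without any 1 of 4 libraries (AA replicate 1 or 2, or PBS replicate 2 or 3; adjusted p = 0.0537 to 0.178). That of BOP1 in intact cells (0.15) was lost without AA replicate 2 (adjusted p = 0.0518).

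The change under AA followed transcript length across the transcriptome, and this bears on single genes of the list. The effective length was computed for each gene from its estimated counts, the library totals and the deposited FPKM values, as the median over libraries. Over all 12718 tested genes, the Spearman correlation of the log2 difference with the effective length was -0.41 in deficient and -0.39 in intact cells. The median difference ran from 0.35 in the shortest of 4 equal bins of length to -0.36 in the longest in deficient cells, and from 0.28 to -0.28 in intact cells. Over the 37 genes the correlation was -0.29 and -0.57. These are descriptions across genes, which share libraries and are not independent. What gives rise to the trend was not tested. With the trend removed, 14 of the 37 rose and 15 fell in deficient cells, near the 36.4% and 34.3% of all tested genes that did so under the same correction. In intact cells 4 rose and 23 fell, beside 33.7% and 31.1%. The genes nearest the ends of the range moved most. NOP10, with an effective length of 507 bases, NHP2 with 630 and FBL with 856 were pulled down, and UTP20 with 9031, POLR1A with 9371, HEATR1 with 8134 and WDR12 with 8600 were pulled up. Values with the trend removed stand below where a call within a genotype changed, or where a value called before or after changed direction. For the difference in response, removing the trend added NOP10 (0.18) and NOP14 (0.15) to the genes called higher in deficient cells, 17 in all beside 22.4% of all tested genes, and NPM1 (-0.12) and GNL3 (-0.12) to those called lower, 7 in all beside 22.6%.

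**Figure D2:**
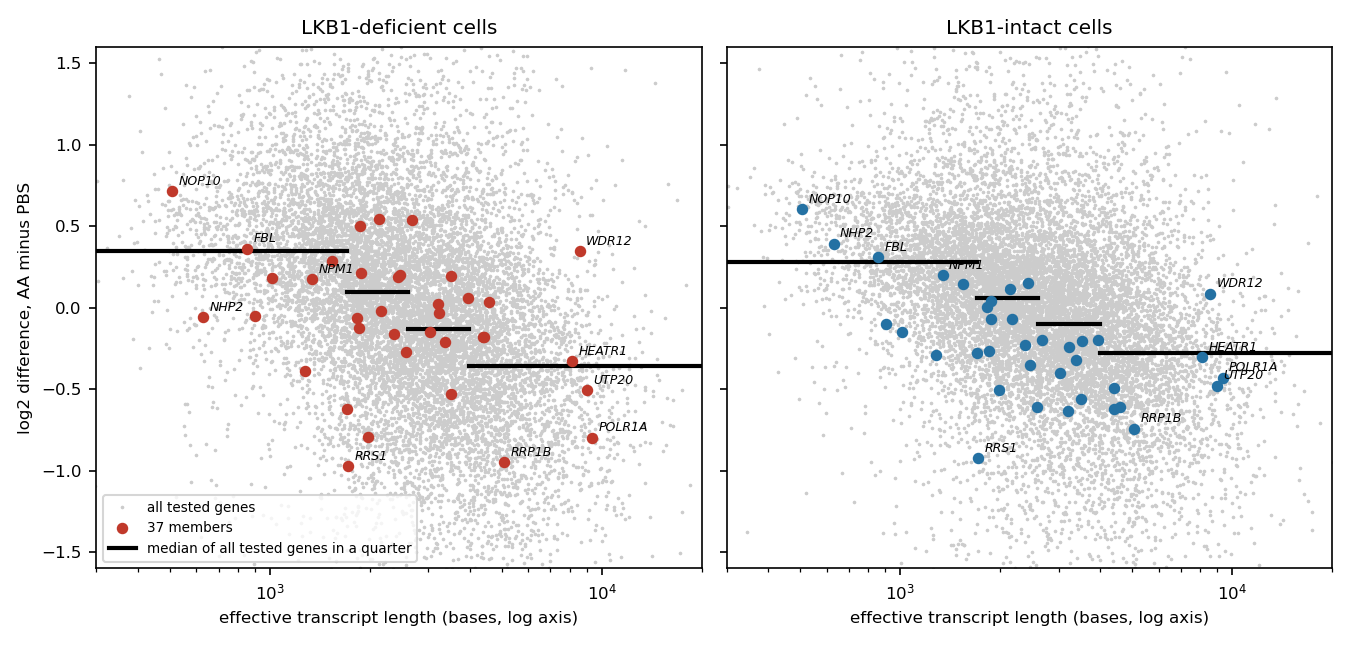
Log2 difference of AA against PBS (y axis) against effective transcript length in bases (x axis, log scale) for all tested genes (grey), the 37 genes (colour) and the median of all tested genes in each of 4 bins of length (black lines), in each genotype. The black lines step down from 0.35 to -0.36 in deficient and from 0.28 to -0.28 in intact cells.

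**Figure D3:**
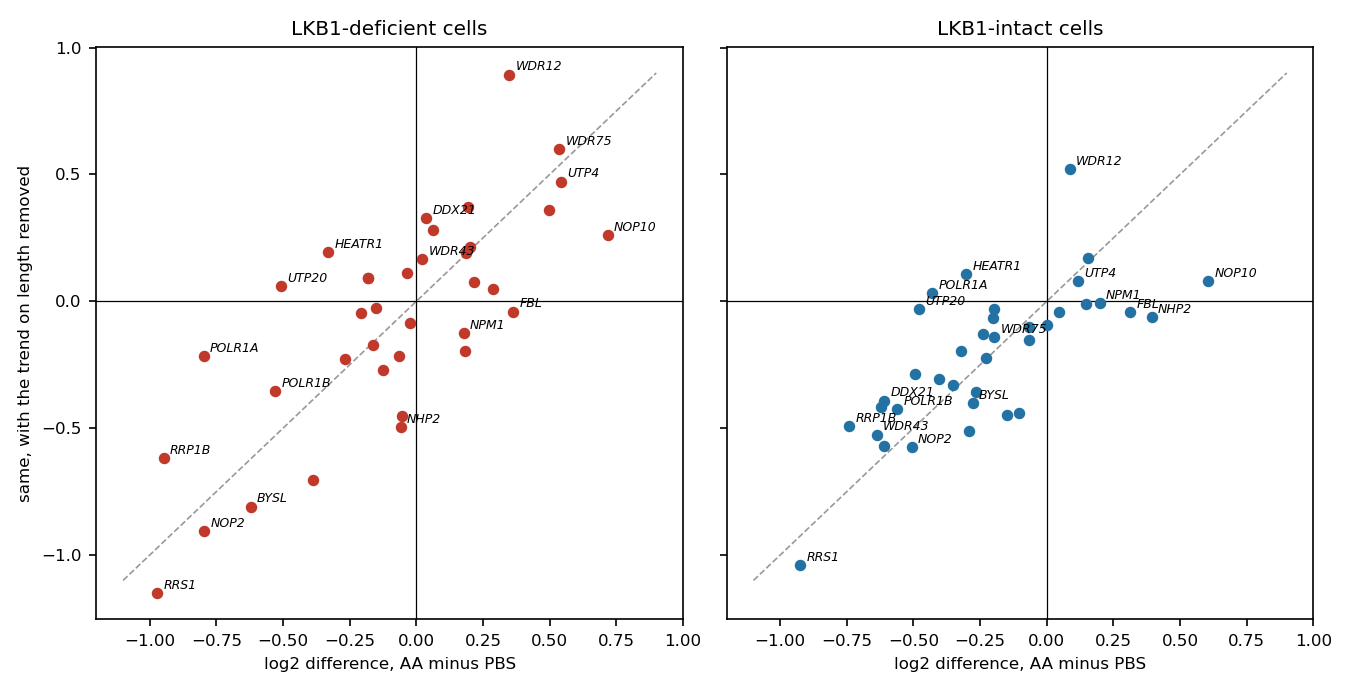
Log2 difference of AA against PBS before (x axis) and after (y axis) the trend with length was removed, for the 37 genes in each genotype, with a dashed line where both are equal. Short genes such as NHP2, NOP10 and FBL lie under the line and long ones such as WDR12, HEATR1 and UTP20 above it.

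Promoter sequences of 30 of the 37 genes were matched by symbol in the RefSeq table (GRCh38.p14), each from 250 bases before to 50 after a listed start. BOP1, NOP58, TCOF1, NOLC1, RRS1, RRP1B and RRP12 had none there. The E-box CACGTG, which reads the same on both strands, was found in 15 of the 30 (50%), beside 12.7% of 10122 tested genes with a promoter and 7.26% of 35116 promoters in the table. CCGGAAG, the core that ETS factors bind, searched on both strands, was in 11 (36.7%, beside 22.6% and 10.3%), and CCAAT in 14 (46.7%, beside 43.3% and 34.6%). TGATGNAA, the element read by ATF4, was in none, beside 2.81% of the tested genes and 3.62% of all promoters. Overlaps between motifs were not removed, and a match describes letters and not a bound site. Of the 13 genes of the list whose values are given by library below, 11 have a promoter in the table and 6 hold an E-box. These are the matches with 10 bases on either side, 5′ to 3′ on the strand of the gene, with the E-box in capitals. They are shown because the hexamer lies close to the start in genes that rose, fell or differed between genotypes alike.
NOP10 (chr15:34343132-34343157, minus strand): aattgacgaaCACGTGacgcggtcgg
UTP4 (chr16:69132623-69132648, plus strand): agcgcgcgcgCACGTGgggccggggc
FBL (chr19:39846358-39846383, minus strand): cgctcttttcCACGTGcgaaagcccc
WDR43 (chr2:28894660-28894685, plus strand): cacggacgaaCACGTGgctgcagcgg
DDX21 (chr10:68956606-68956631, plus strand): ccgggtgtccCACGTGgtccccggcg
BYSL (chr6:41921517-41921542, plus strand): cttcagtcccCACGTGcgatccttcc
The first base of the match was 11 bases before the listed start in NOP10, 16 before in UTP4 and 31 before in DDX21, and 6, 3 and 28 bases past it in FBL, WDR43 and BYSL. NOP10 held another E-box 170 bases before its start. Across the 15 genes with an E-box match, the first bases lay between 31 before and 35 past the start, apart from that second match in NOP10.

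UTP20 and HEATR1 are both large processome proteins whose genes fell under AA in both genotypes, and their upstream sequences are set side by side because 1 holds an E-box and the other holds none. Each run is the 80 bases before the listed start, 5′ to 3′ on the strand of the gene, with the E-box in capitals.
UTP20 (chr12:101280025-101280104, plus strand): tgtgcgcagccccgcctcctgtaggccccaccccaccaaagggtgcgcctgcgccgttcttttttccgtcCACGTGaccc
HEATR1 (chr1:236604517-236604596, minus strand): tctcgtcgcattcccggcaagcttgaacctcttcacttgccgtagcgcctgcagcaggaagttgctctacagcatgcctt
Genes with and without an E-box match were called in both directions. In intact cells under AA, 3 of the 15 with a match rose and 8 fell, and 2 of the 15 without rose and 10 fell, with medians of -0.20 and -0.23. In deficient cells these were 4 up and 5 down with a match, and 6 up and 7 down without, with medians of 0.022 and -0.058. Of all tested genes 34.5% rose and 35.2% fell in intact cells, and 37% and 37.4% in deficient cells. MYC itself was at 197, 214 and 204 CPM in intact cells under PBS and 109, 118 and 92.4 CPM under AA, and at 206, 222 and 191 and 134, 140 and 137 CPM in deficient cells. It fell in both genotypes, by 0.94 and 0.59 on the log2 scale (adjusted p = 1.88e-11 and 1.51e-08), and the fall was smaller in deficient cells (difference 0.35 ± 0.088 (SE, adjusted p = 0.00229)).

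All 5 genes of RNA polymerase I and its factors fell in intact cells, and 4 of 5 fell in deficient cells. Of all tested genes 35.2% and 37.4% fell. Of 18 further polymerase subunits and initiation factors, 6 fell and 7 rose in intact cells, and 7 fell and 8 rose in deficient cells. POLR1A encodes the largest subunit and lies at chr2:86020216-86106155 on the minus strand (GENCODE release 29, GRCh38). It was at 122, 115 and 116 CPM in intact cells under PBS and 90.1, 87.5 and 84.7 CPM under AA. In deficient cells it went from 114, 112 and 110 CPM to 61.4, 64.4 and 67.2 CPM. The groups did not overlap, and the lowest values of all were those of deficient cells under AA. The log2 difference was -0.80 ± 0.043 (SE, adjusted p = 2.95e-13) where LKB1 was deficient and -0.43 ± 0.042 (SE, adjusted p = 7.97e-09) where it was intact, and the difference between them was -0.37 ± 0.06 (SE, adjusted p = 3.1e-05). That difference was not called on FPKM (adjusted p = 0.107 to 0.118), and with the length trend removed the value in intact cells was 0.034, not called, while that in deficient cells was -0.22 and called.

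POLR1B, the second largest subunit, fell by 0.53 in deficient and 0.56 in intact cells, and POLR1C, a subunit shared with RNA polymerase III, by 0.39 and 0.29. Neither was called for the difference between genotypes. UBTF, the factor that binds along the ribosomal DNA, fell by 0.15 in deficient and 0.40 in intact cells, a difference of 0.25 ± 0.056 (SE, adjusted p = 0.000886). Its fall in deficient cells was not called on FPKM (adjusted p = 0.0851 to 0.0862) or with the length trend removed (-0.026). RRN3, which carries the polymerase to the promoter, was the 1 gene of the 5 that rose in deficient cells, from 110, 109 and 100 CPM to 122, 118 and 126 CPM, with no overlap. It fell in intact cells, from 101, 107 and 104 CPM to 91.8, 93.5 and 86.2 CPM, again with no overlap, and the difference was 0.40 ± 0.062 (SE, adjusted p = 1.92e-05). With the length trend removed its fall in intact cells was not called (-0.066, adjusted p = 0.176). RRN3 has 2 named pseudogenes, among which an estimator of counts can share reads.

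All 3 box C/D genes rose in deficient cells, and 1 of them, FBL, rose in intact cells. Of all tested genes 37% rose in deficient and 34.5% in intact cells. FBL, the methyltransferase fibrillarin, lies at chr19:39834458-39846414 on the minus strand. It was at 158, 161 and 156 CPM in intact cells under PBS and 204, 191 and 193 CPM under AA, and went from 149, 156 and 154 CPM to 210, 196 and 183 CPM in deficient cells. The groups of each genotype did not overlap, and the rise was 0.36 ± 0.042 (SE, adjusted p = 7.13e-08) in deficient cells. In intact cells it was 0.31 ± 0.042 (SE, adjusted p = 8.71e-07), with 0.051 between them (adjusted p = 0.514). FBL is among the shortest of the 37, and with the length trend removed neither value was called (-0.041 and -0.043). NOP58 and NOP56, the paired scaffold proteins of the particle, rose by 0.50 and 0.22 in deficient cells and stood at 0.044 and -0.068 in intact cells, not called. NOP56 was called lower in intact cells without AA replicate 3 (adjusted p = 0.0446) and with the length trend removed (-0.15). The difference between genotypes was called for both, at 0.45 ± 0.049 (SE, adjusted p = 1.27e-07) and 0.28 ± 0.05 (SE, adjusted p = 8.28e-05). NOP56 has 3 named pseudogenes.

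The 4 box H/ACA genes, whose proteins form 1 particle, did not move together. NOP10, the smallest core protein, lies at chr15:34341713-34343177 on the minus strand. It went from 63.9, 61.2 and 53.5 CPM under PBS to 93.3, 82.9 and 95.2 CPM under AA in intact cells, and from 61.6, 54.7 and 56.5 to 93.1, 103 and 88.3 CPM in deficient cells. All AA libraries were above all PBS libraries, and the rise was 0.72 ± 0.068 (SE, adjusted p = 3.35e-09) where LKB1 was deficient and 0.61 ± 0.068 (SE, adjusted p = 6.8e-08) where it was intact, the largest of the 37 in each. With the length trend removed it was 0.26 in deficient cells and 0.08 in intact cells, the latter not called (adjusted p = 0.146).

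NHP2, another core protein, lies at chr5:178149460-178153967 on the minus strand. It rose in intact cells from 96.5, 99 and 92.7 CPM to 132, 122 and 125 CPM, with no overlap. In deficient cells it was at 99.2, 92.2 and 104 CPM under PBS and 92.4, 97.7 and 93.8 CPM under AA, and the groups overlapped. The log2 difference was 0.39 ± 0.045 (SE, adjusted p = 9.67e-08) in intact and -0.058 ± 0.046 (SE, adjusted p = 0.258) in deficient cells, and between them -0.45 ± 0.064 (SE, adjusted p = 6.18e-06). With the length trend removed, NHP2 was at -0.063 in intact cells, not called, and -0.49 in deficient cells, called lower, while the difference between genotypes stayed at -0.43. NHP2 has 2 named pseudogenes, and its exons overlap those of RMND5B on the other strand.

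DKC1 encodes dyskerin, the pseudouridine synthase of the particle. It rose in deficient cells from 269, 282 and 278 CPM to 324, 313 and 315 CPM and fell in intact cells from 272, 262 and 273 CPM to 210, 218 and 205 CPM, and neither pair of groups overlapped. The difference was 0.55 ± 0.045 (SE, adjusted p = 2.11e-09), and both directions were kept with the length trend removed (0.21 and -0.33). GAR1 was at 0.18 and -0.15, called in neither genotype, but lower in intact cells with the length trend removed (-0.45). It was called higher in deficient cells when 1 of 2 libraries was left out (AA replicate 3 or PBS replicate 3, adjusted p = 0.00863 and 0.0187). Its difference between genotypes (0.33, adjusted p = 0.0594) was called without any 1 of 3 libraries (deficient AA replicate 3, deficient PBS replicate 3 or intact AA replicate 3; adjusted p = 0.00884 to 0.042).

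**Figure D4:**
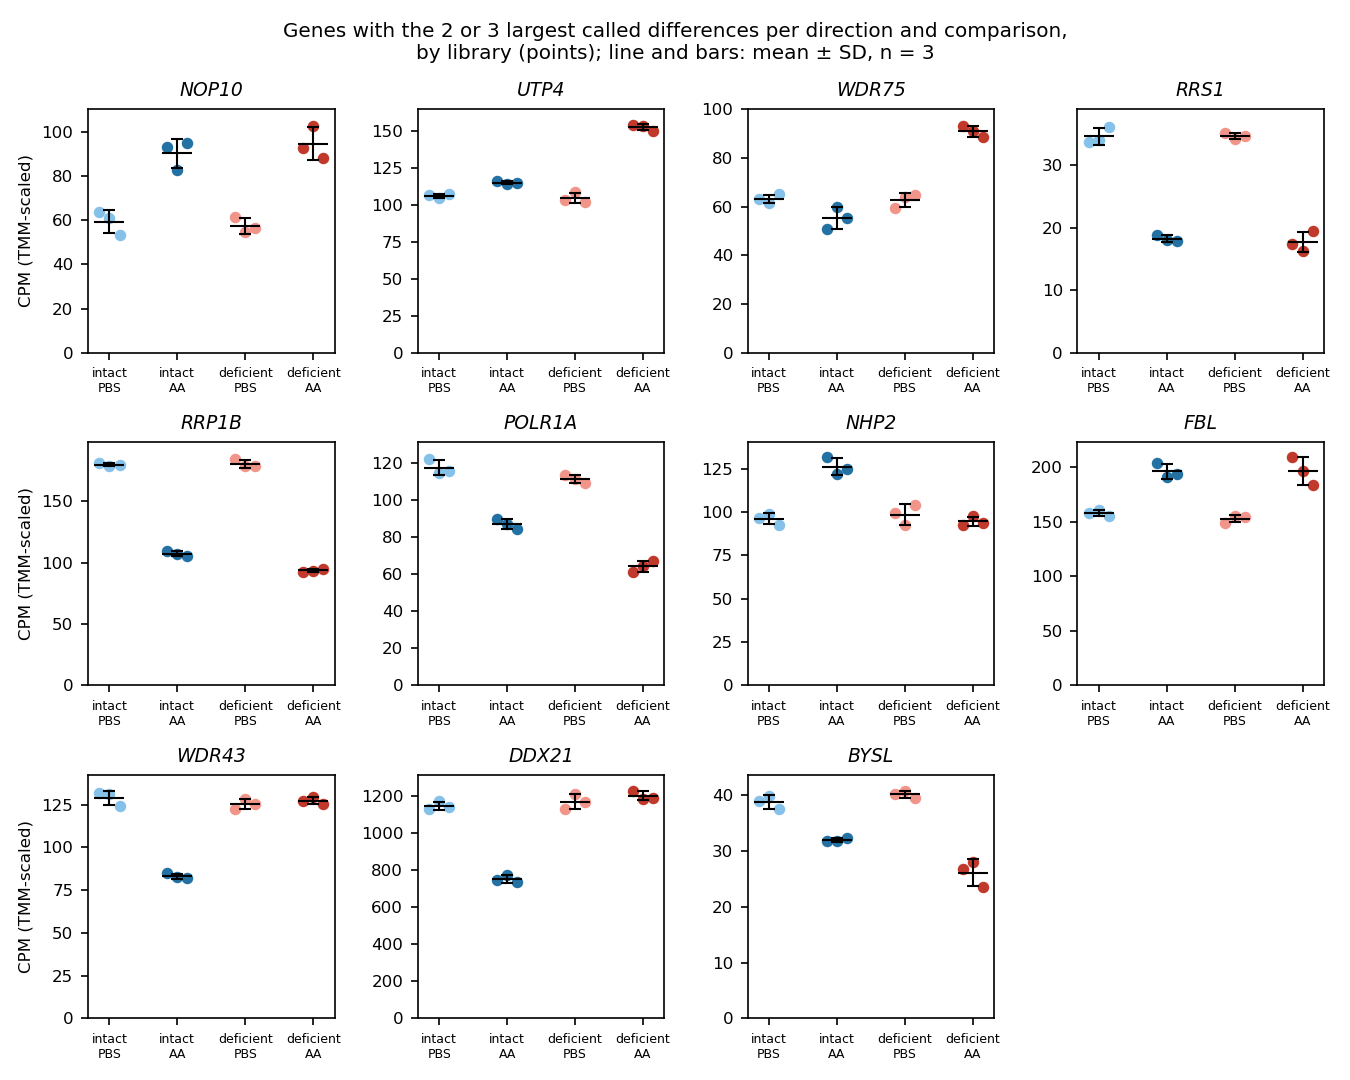
TMM-scaled CPM (y axis, from 0) in each of the 12 libraries (points) of the 11 genes that have 1 of the 3 largest called differences in a direction for AA in a genotype or for the difference in response, or 1 of the 2 largest between genotypes, by group (x axis), with the mean and SD of 3 libraries. WDR43 and DDX21 are low in intact cells under AA alone, WDR75 is high in deficient cells under AA, and RRS1 and RRP1B are low under AA in both genotypes.

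Among the nucleolar chaperones and scaffolds, NCL and TCOF1 fell in both genotypes, NPM1 rose in both, NOLC1 fell in intact cells and GNL3 was called in neither. NPM1, nucleophosmin, was the most abundant gene of the list per length, at 2245 FPKM over all libraries, ahead of NCL, nucleolin, at 488.5 and DDX21 at 232.4. At the other end were WDR12 at 6.18 and POLR1A at 10.2 FPKM. NPM1 rose by 0.18 and 0.20, from 2767 to 2882 CPM in the 6 PBS libraries to 3154 to 3257 CPM in the 6 AA libraries, with no overlap. With the length trend removed it was -0.12 in deficient cells, called lower, and -0.0065 in intact cells, not called. NPM1 has 45 named pseudogenes, so its count is uncertain where the estimator shares reads among copies.

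NCL fell by 0.16 in deficient and 0.23 in intact cells, and it also has 2 named pseudogenes. TCOF1, the treacle protein that links RNA polymerase I to processing, fell by 0.18 and 0.50, a difference of 0.31 ± 0.061 (SE, adjusted p = 0.000245). The value of TCOF1 in deficient cells was 0.092 after removal of the length trend (adjusted p = 0.0571). NOLC1, a snoRNP chaperone and scaffold, fell in intact cells by 0.24 and stood at -0.034 in deficient cells, or 0.11 and called higher with the length trend removed. The difference for NOLC1 was 0.21 ± 0.042 (SE, adjusted p = 0.000322). GNL3, nucleostemin, was at -0.066 and 0.0013, and was called lower in deficient cells without PBS replicate 1 (adjusted p = 0.033). After removal of the length trend it was called lower in both genotypes, at -0.22 and -0.095.

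The 13 genes of the small subunit processome and small subunit assembly fell in 11 cases and rose in 1 in intact cells. In deficient cells they fell in 7 and rose in 3. As shares these were 84.6% and 7.69% in intact cells, beside 35.2% and 34.5% of all tested genes. In deficient cells they were 53.8% and 23.1%, beside 37.4% and 37%. The medians were -0.30 and -0.12. For 7 of the 13 the response was higher in deficient cells, and for 1, BYSL, lower, beside 21.6% and 23% of all tested genes. WDR75, WDR43 and DDX21, the 3 genes of the 37 with the widest positive difference between genotypes, are among these 13.

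WDR75 (chr2:189441433-189475565, plus strand) encodes a protein of the subcomplex that binds the precursor RNA first. It was at 63.2, 61.5 and 65 CPM in intact cells under PBS and 50.6, 59.6 and 55.2 CPM under AA, and went from 59.3, 64.1 and 64.9 CPM to 93.3, 90.9 and 88.7 CPM in deficient cells. Each AA group lay outside its PBS group, above it in deficient and below it in intact cells. The log2 difference was 0.54 ± 0.052 (SE, adjusted p = 5.51e-09) where LKB1 was deficient and -0.20 ± 0.055 (SE, adjusted p = 0.00309) where it was intact, and the difference between genotypes, 0.73 ± 0.076 (SE, adjusted p = 7.56e-08), was the widest of the 37. The fall in intact cells was not called on FPKM (adjusted p = 0.123 to 0.125).

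WDR43 (chr2:28894643-28948222, plus strand) encodes a partner of WDR75 in the same subcomplex. It fell in intact cells from 132, 131 and 124 CPM to 84.8, 82.6 and 81.9 CPM. In deficient cells it was at 122, 128 and 126 CPM and 127, 129 and 125 CPM, and these overlapped. The log2 difference was -0.64 ± 0.037 (SE, adjusted p = 2.23e-12) in intact and 0.022 ± 0.036 (SE, adjusted p = 0.597) in deficient cells, and 0.66 ± 0.052 (SE, adjusted p = 1.24e-09) between them. After removal of the length trend WDR43 was called higher in deficient cells (0.17).

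DDX21 (chr10:68956128-68985073, plus strand), a nucleolar RNA helicase that binds both ribosomal DNA transcripts and snoRNAs, was low in the same group as WDR43. It fell in intact cells from 1126, 1170 and 1139 CPM to 746, 773 and 732 CPM, and in deficient cells was at 1129, 1210 and 1166 CPM and 1226, 1180 and 1189 CPM. Only intact cells under AA stood apart. The log2 difference was -0.61 ± 0.029 (SE, adjusted p = 5.41e-14) in intact and 0.037 ± 0.028 (SE, adjusted p = 0.242) in deficient cells, and 0.65 ± 0.04 (SE, adjusted p = 2.89e-11) between them. DDX21 was called higher in deficient cells without PBS replicate 2 (adjusted p = 0.0431) and with the length trend removed (0.33).

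UTP4 (chr16:69131291-69231130, plus strand) belongs, like WDR43, WDR75, UTP15 and HEATR1, to the subcomplex also needed for transcription by RNA polymerase I. It was at 107, 105 and 107 CPM and 116, 114 and 115 CPM in intact cells under PBS and AA, and at 103, 109 and 102 and 154, 153 and 150 CPM in deficient cells. AA libraries lay above PBS libraries in both genotypes, and those of deficient cells were highest. The rise was 0.54 ± 0.035 (SE, adjusted p = 6.07e-12) where LKB1 was deficient and 0.12 ± 0.035 (SE, adjusted p = 0.00621) where it was intact, with a difference of 0.43 ± 0.05 (SE, adjusted p = 4.62e-07). The other two genes of that subcomplex fell in both genotypes: UTP15 by 0.27 in deficient and 0.61 in intact cells, with a difference of 0.34 ± 0.078 (SE, adjusted p = 0.00118), and HEATR1 by 0.33 and 0.30. HEATR1, with one of the longest transcripts, was instead called higher in both with the length trend removed (0.19 and 0.11). So the 5 genes of 1 subcomplex did not share a direction in either genotype.

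BYSL (chr6:41921188-41933046, plus strand), bystin, acts late in small subunit assembly. It went from 39.1, 39.9 and 37.5 CPM to 31.9, 31.8 and 32.4 CPM in intact cells, and from 40.3, 40.8 and 39.6 CPM to 26.8, 28.1 and 23.5 CPM in deficient cells. Each AA group was below its PBS group, and deficient cells under AA were lowest. The fall was -0.62 ± 0.063 (SE, adjusted p = 1.03e-08) where LKB1 was deficient and -0.28 ± 0.062 (SE, adjusted p = 0.000429) where it was intact, and the difference -0.34 ± 0.088 (SE, adjusted p = 0.00296).

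Of the remaining small subunit genes, RRP12, an export and maturation factor, fell by 0.62 in intact and 0.18 in deficient cells, a difference of 0.44 ± 0.062 (SE, adjusted p = 4.89e-06). Its call in deficient cells was lost on FPKM (adjusted p = 0.0792 to 0.08) and its value there was 0.09 with the length trend removed. UTP20 fell by nearly the same amount in both, 0.51 and 0.48, and neither was called with the length trend removed (0.059 and -0.03). NAT10, which acetylates ribosomal RNA, fell by 0.20 in intact cells and stood at 0.062 in deficient cells, a difference of 0.26 ± 0.051 (SE, adjusted p = 0.000258). Once the length trend was removed, NAT10 was -0.029, not called, in intact cells and 0.28, called, in deficient cells. NOP14 fell by 0.21 and 0.32, the first not called with the length trend removed (-0.046). LTV1, an adaptor of the late small subunit, fell by 0.27 in intact cells, and its difference between genotypes was called only without intact AA replicate 3 (adjusted p = 0.0466) or by library size (adjusted p = 0.0387). RRP9, the protein that binds the U3 snoRNP, rose by 0.29 in deficient cells, which was not called with the length trend removed (0.049), and stood at 0.15 in intact cells.

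Of the 7 large subunit assembly genes, RRS1, RRP1B and NOP2 fell in both genotypes, BOP1 rose in both, WDR12 rose in deficient cells, and PES1 and NOP16 were called in neither. RRS1, which helps to load a small ribosomal RNA into the large subunit, was at 33.7, 34.1 and 36.2 CPM in intact cells under PBS and 18.9, 18 and 17.9 CPM under AA, and at 35.2, 34.2 and 34.7 and 17.4, 16.3 and 19.4 CPM in deficient cells. Every AA library was below every PBS library, and the levels of the 2 AA groups overlapped. The fall was -0.97 ± 0.068 (SE, adjusted p = 2.61e-11) where LKB1 was deficient and -0.92 ± 0.068 (SE, adjusted p = 9.9e-11) where it was intact, the widest of the 37 in each, with -0.047 between them (adjusted p = 0.726). It was wider with the length trend removed, at -1.15 and -1.04.

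RRP1B (chr21:43659548-43696079, plus strand), a nucleolar protein of large subunit processing, went from 181, 178 and 179 CPM to 110, 107 and 105 CPM in intact and from 184, 179 and 179 CPM to 92.7, 93.1 and 95.2 CPM in deficient cells. The AA groups were below the PBS groups and did not overlap each other. The fall was -0.95 ± 0.033 (SE, adjusted p = 2.13e-16) where LKB1 was deficient and -0.74 ± 0.033 (SE, adjusted p = 2.47e-14) where it was intact, with a difference of -0.21 ± 0.047 (SE, adjusted p = 0.00111). NOP2, a methyltransferase of the large subunit RNA, fell by 0.80 and 0.51, with a difference of -0.29 ± 0.091 (SE, adjusted p = 0.0132).

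BOP1, PES1 and WDR12 encode the 3 proteins of 1 complex of large subunit maturation, and their genes moved little or up. BOP1 rose by 0.19 and 0.15, and PES1 stood at -0.023 and -0.068, or -0.085 and -0.10, both called lower, with the length trend removed. WDR12 rose by 0.35 in deficient cells and was at 0.087 in intact cells, with a difference of 0.26 ± 0.071 (SE, adjusted p = 0.005). WDR12 was at 0.89 and 0.52 after removal of the length trend, both called, which rests on its computed effective length of 8600 bases. NOP16 was at -0.054 and -0.10, and was called lower in both with the length trend removed (-0.45 and -0.44). NOP16 was also called lower in intact cells without AA replicate 2 (adjusted p = 0.0242).

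Between genotypes, none of the 37 genes was called under PBS and 23 were called under AA, where 59% of all tested genes were. The count of 0 under PBS stands beside 0.055% of all tested genes higher and 0.22% lower in deficient cells by edgeR, and 0 of the 37 had an unadjusted p under 0.05. DESeq2 called 0 as well. The log2 differences ran from -0.10 for BOP1 to 0.15 for GAR1, with standard errors of 0.021 to 0.10. Under AA, 18 were higher and 5 lower in deficient cells, beside 28.7% and 30.3% of all tested genes, with a median of 0.13 beside -0.016. The 5 lower genes were NHP2 (-0.42), POLR1A (-0.44), NOP2 (-0.30), BYSL (-0.29) and RRP1B (-0.20). The highest were WDR75 (0.72), DDX21 (0.68), WDR43 (0.61), DKC1 (0.59) and NOP58 (0.52). Small subunit genes made up 9 of the 18, out of 13, and RRS1 and HEATR1 were at -0.045 and -0.014. Removing the length trend left 20 higher and 8 lower, beside 29.2% and 29.8% of all tested genes, and it added HEATR1 (0.11), UTP20 (0.10) and NOP14 (0.13) to the higher and NPM1 (-0.12), GNL3 (-0.087) and POLR1C (-0.18) to the lower genes. The comparisons under AA and of the difference in response use the same AA libraries, so they are not separate evidence. The call of LTV1 (higher under AA, 0.15) was lost without any 1 of 3 libraries (intact AA replicate 1, deficient AA replicate 2 or 3; adjusted p = 0.0571 to 0.15) and with the length trend removed. NOP16 was called higher without intact AA replicate 2 (adjusted p = 0.0138) and NCL without that library or deficient PBS replicate 2 (adjusted p = 0.0325 and 0.0474). NOP14 was called higher without deficient AA replicate 2 (adjusted p = 0.0369), and UTP20 lower without intact AA replicate 3 (adjusted p = 0.0372). The lower call of UTP20 came only without that library, and UTP20 was called higher with the length trend removed. The gains of NCL, NOP14 and NOP16 were not tied to single libraries alone. NCL was also called higher in limma-voom, with only the 6 libraries compared, on FPKM and by library size (adjusted p = 0.00057 to 0.0487). NOP14 and NOP16 were also called higher on FPKM and by library size, and NOP16 with the replicate block.

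**Figure D5:**
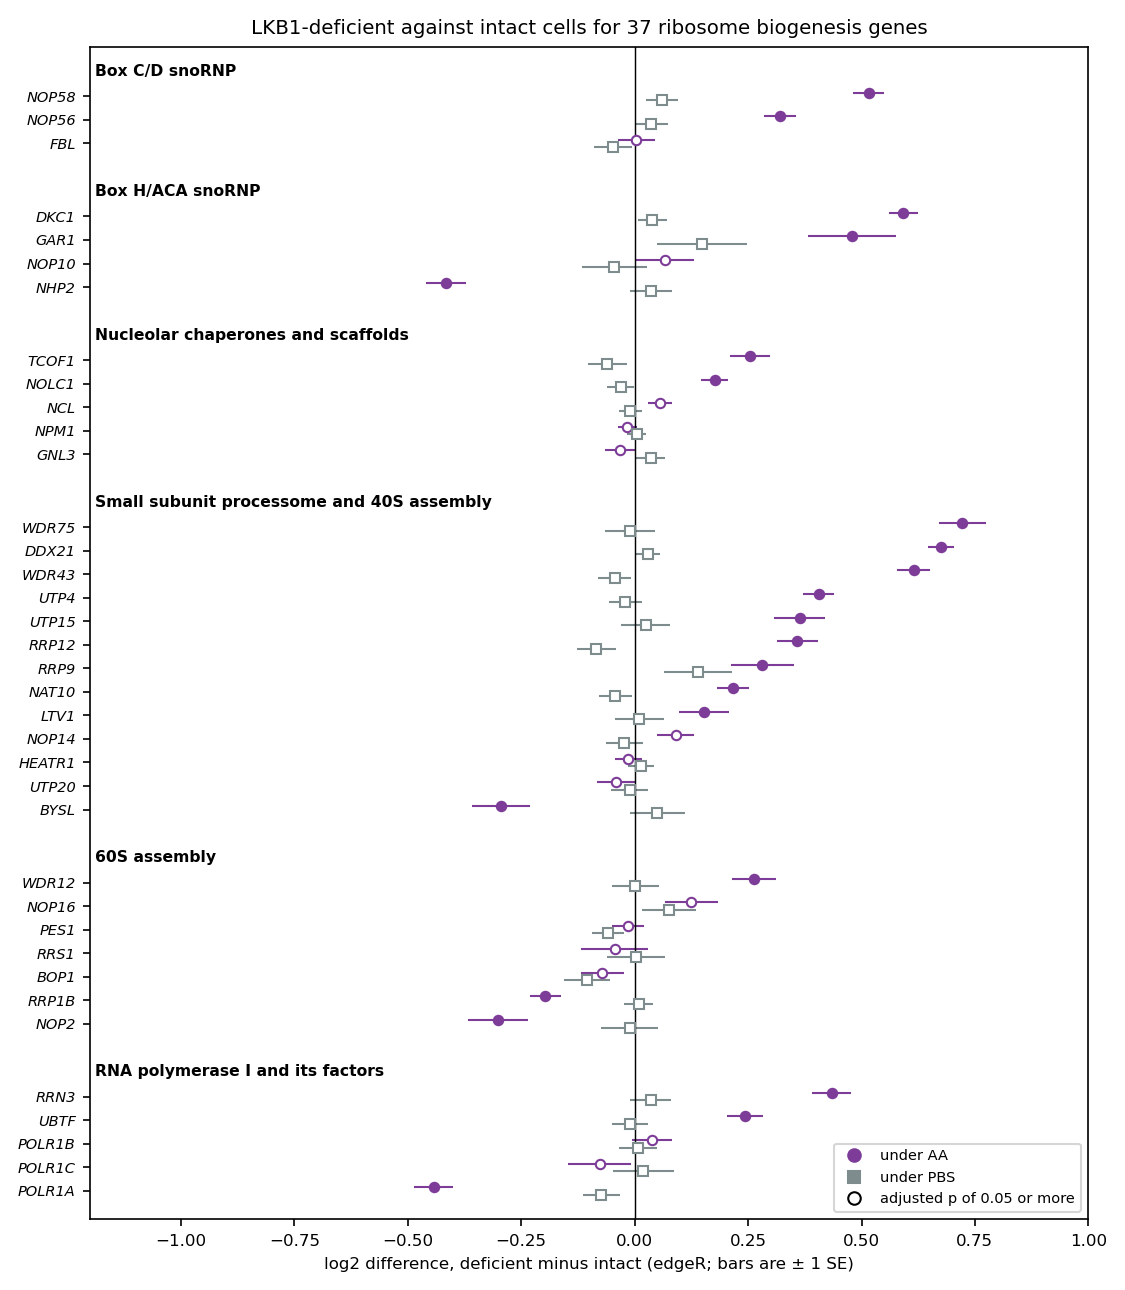
Log2 difference of LKB1-deficient against LKB1-intact cells (x axis) for each of the 37 genes (y axis, grouped by role) under PBS and under AA, with bars of 1 SE and filled points for adjusted p under 0.05. No point under PBS is called, and under AA 18 lie to the right and 5 to the left of 0 and are called.

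Of the 37 genes, 7 have annotated small nucleolar RNA genes within their bounds on the same strand, and are called hosts here. Whether these snoRNAs are made from the transcripts of the hosts was not tested. In GENCODE release 29, 24 snoRNA genes lie inside DKC1, GNL3, NCL, NOP56, NOP58, POLR1C and WDR43, on the same strand, and hosts made up 18.9% of the 37, beside 1.76% of 12650 tested protein-coding genes. The libraries were made from RNA picked by its poly(A) tail, per the labels' protocols, so the snoRNAs themselves were not measured here. Under AA 3 of the 7 rose and 2 fell in deficient cells, where 37% and 37.4% of all tested genes did, and none rose and 4 fell in intact cells, beside 34.5% and 35.2%. The counts in deficient cells are near those shares. The response was higher in deficient cells for 4 of the 7, DKC1, NOP56, NOP58 and WDR43, and lower for none, beside 21.6% and 23% of all tested genes. Among the other 30 it was higher for 11 and lower for 5.

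The rest of the pathway was followed through 136 further genes, all of which passed the low-count filter. Under AA 62 rose and 46 fell in deficient cells, with a median of 0.066, and 33 rose and 62 fell in intact cells, with a median of -0.061. As shares these were 45.6% and 33.8% in deficient cells, beside 37% and 37.4% of all tested genes, and 24.3% and 45.6% in intact cells, beside 34.5% and 35.2%. The response was higher in deficient cells for 55 (40.4%) and lower for 23 (16.9%), beside 21.6% and 23% of all tested genes, with a median of 0.12. On FPKM it was lower for 15, beside 15.4% of all tested genes on log2(FPKM + 1) and 15.3% on log2(FPKM + 0.1). Under PBS none was called between genotypes by edgeR, with 7 at an unadjusted p under 0.05, and 1 was called lower without intact AA replicate 2. DESeq2 called none of them. As among the 37, more of these genes fell than rose in intact cells, while in deficient cells more of them rose.

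The counts by role stand beside the same shares of all tested genes. In deficient cells 37% of all tested genes rose and 37.4% fell, and in intact cells 34.5% and 35.2%. The 10 snoRNP assembly factors rose in 7 cases and fell in 2 in deficient cells (70% and 20%). In intact cells they rose in 5 and fell in 1 (50% and 10%). RUVBL1, an ATPase of the assembly chaperone, rose by 0.50 and 0.36, and SNU13, the box C/D core protein that binds the RNA first, rose by 0.46 in deficient cells. The 16 exosome and nuclease genes rose in 10 and fell in 3 in deficient cells (62.5% and 18.8%). In intact cells they rose in 6 and fell in 5 (37.5% and 31.2%), near the shares of all tested genes. EXOSC8, an exosome ring subunit, rose by 1.03 in deficient cells with a difference between genotypes of 0.91, and NOP53, which hands the precursor to the exosome, rose by 0.70 and 0.60. Of 43 further small subunit genes 15 rose and 17 fell in deficient cells (34.9% and 39.5%), near the shares of all tested genes. In intact cells 5 rose and 22 fell (11.6% and 51.2%). AATF and UTP6 rose by 0.52 and 0.55 in deficient cells, and PDCD11 and TSR1 fell by 0.51 and 0.38 in intact cells.

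Of 49 further large subunit genes, 22 rose and 17 fell in deficient cells (44.9% and 34.7%). In intact cells 10 rose and 28 fell (20.4% and 57.1%). RSL24D1, which holds a place in the large subunit for a ribosomal protein, rose by 1.21 in deficient cells, with a difference of 0.90. MDN1, a giant ATPase that strips assembly factors, fell by 1.09 there, and URB1 and URB2 fell by 0.92 and 0.91 in intact cells. Of 18 polymerase subunits and initiation factors, 8 rose and 7 fell in deficient cells (44.4% and 38.9%). In intact cells 7 rose and 6 fell (38.9% and 33.3%). Both are near the shares of all tested genes. POLR1G, a polymerase subunit, fell by 1.67 in intact cells, to a mean of 4.76 CPM. TAF1D, of the factor that selects the promoter, rose by 0.73 in deficient cells, and PTRF, known for polymerase I termination and for caveolae, fell by 1.55 in deficient and 0.50 in intact cells. The difference in response was 0.85 for TAF1D and -1.05 for PTRF.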

How the data were processed

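RNA was extracted with Trizol and selected on oligo(dT) before sequencing, per the labels' protocols. Per the submitters' processing notes, the tools were HISAT2 2.1.0, StringTie 1.3.1, RSEM, fastp 0.18.0 and Bowtie2 2.2.8. What each did, the genome build and the strand setting were not given in the sources used here. A table of estimated counts was deposited by the authors, of which 10.9 to 11.5% of the values in a library have a fraction, and a table of FPKM values. Estimation shares reads among similar transcripts, so genes with pseudogene copies are uncertain, as are the 12 of the 37 whose exons overlap another coding gene.

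Estimated counts were rounded and filtered by group at a minimum count of 10. edgeR 4.0.16 (R 4.3.3) fitted all 12 libraries with 1 quasi-likelihood model, TMM factors and group as the factor, and tested 5 comparisons with Benjamini-Hochberg adjustment over 12718 genes, at an adjusted p under 0.05. The standard error is the log2 difference over the square root of F. The deposited FPKM values were used to compare levels between genes. For removal of the length trend, each gene's log2 CPM in a library was taken relative to its mean over all libraries. In each library a loess curve (span 0.3) of these values on log2 effective length was fitted. The curve then entered edgeR as an offset, and the model was fitted again. The 37 genes and the 136 further pathway genes were chosen with earlier results of these data known.

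Values in every library were given for the 3 largest called differences in each direction for AA in each genotype and for the difference in response, and the 2 largest in each direction between genotypes. They were also given for DKC1 and RRN3, chosen after their values were seen, and for MYC. Of the further genes, at most the 2 of smallest p for a role and comparison were named. Alternatives were a replicate block, DESeq2 1.42.0, limma-voom (limma 3.58.1), scaling by RLE, by the upper quartile or by library size only, other filters and thresholds, limma on log2(FPKM + 1) or log2(FPKM + 0.1), fits to the 6 libraries compared, removal of the length trend, and each library left out. Simulated counts were run through the edgeR fit, limma-voom, the replicate block and the removal of a length trend, and not through the other alternatives. Libraries of a group differed by more than sampling noise (chi-square per degree of freedom 2.01 to 4.26), so none was taken for a copy. Besides the 10 markers of other cell types that are reported, 1 further marker is not reported here.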

Additional observations from a re-analysis of the deposited data

Results flagged for a closer look

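The response to AA differed between LKB1-deficient and LKB1-intact cells, by edgeR's test of that difference, for 20 of the 37 genes, beside 44.6% of all tested genes. Of the 136 further genes it was higher in deficient cells for 55 and lower for 23, beside 21.6% and 23%. The 10 of them given here were picked from those called for this difference, by smallest p in each role, so their calls were fixed by that choice. The log2 difference, deficient minus intact, was 0.73 for WDR75, 0.66 for WDR43, 0.65 for DDX21, 0.44 for RRP12, 0.43 for UTP4, 0.34 for UTP15, 0.26 for NAT10 and -0.34 for BYSL among small subunit genes. It was 0.55 for DKC1, 0.45 for NOP58, 0.28 for NOP56 and -0.45 for NHP2 among snoRNP genes, and 0.31 for TCOF1 and 0.21 for NOLC1 among nucleolar scaffolds. It was 0.26 for WDR12, -0.21 for RRP1B and -0.29 for NOP2 among large subunit genes, and 0.40 for RRN3, 0.25 for UBTF and -0.37 for POLR1A among polymerase genes.

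In the wider pathway it was 0.91 for EXOSC8, 0.90 for RSL24D1, 0.85 for TAF1D, 0.60 for EIF6, 0.57 for AATF, 0.49 for ZNHIT6, 0.48 for UTP6, 0.46 for EXOSC1, 0.37 for SNU13 and -1.05 for PTRF.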

How the results depend on the processing

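A change of sign was counted only where the value was called in the reported fit or under the alternative. A value called in neither was counted as kept, whatever its sign. Of 2553 values of the 37 genes under alternatives other than leaving out a library, 2433 were kept. A call was lost for 51 and gained for 54, and 15 changed sign. Of 2220 values with 1 library left out, 2197 were kept, 8 lost and 15 gained a call, and 0 changed sign by the same count. The cause of the changes was not tested. All 15 changes of sign came with the length trend removed: in deficient cells FBL (-0.041), HEATR1 (0.193), NOLC1 (0.113), NPM1 (-0.125), RRP12 (0.0904), TCOF1 (0.092) and UTP20 (0.0595), in intact cells FBL (-0.043), GNL3 (-0.095), HEATR1 (0.109), NHP2 (-0.063), NPM1 (-0.0065) and POLR1A (0.034), and between genotypes under AA HEATR1 (0.113) and UTP20 (0.096). The medians of the 37 then were -0.0258 and -0.154 for AA in deficient and intact cells and 0.0894 for the difference in response. Those of all tested genes were 0.0231, 0.015 and -0.00823. Of the 37, 8 were lower in deficient cells under AA, beside 29.8% of all tested genes. Under upper quartile factors the medians of the 37 were -0.0138, -0.178 and 0.0901, and 0.101 between genotypes under AA. For all tested genes these were 0.0533, 0.0696, -0.0355 and -0.0401. By library size only the 37 had 0.00367 in deficient cells, 0.167 for the difference and 0.181 under AA. All tested genes had 0.0706, 0.0411 and 0.0406. On log2(FPKM + 1) the 37 had -0.0268, 0.166 and 0.187, beside 0.0608, 0.0482 and 0.0493. On log2(FPKM + 0.1) they had -0.0269, 0.167 and 0.19, beside 0.0678, 0.0519 and 0.0546, with -0.264 in intact cells, beside 0.00446. On FPKM with either pseudocount, 15 further pathway genes were lower for the difference, beside 15.4% and 15.3% of all tested genes. Of all genes called between genotypes under AA 60.3% and 60% were higher on FPKM, beside 48.7% in the reported fit. Without a low-count filter, or with only the 6 libraries compared, 1 further pathway gene was lower under PBS. With a log2 difference of at least 0.25 also asked, 7 of the 37 rose and 10 fell in deficient cells and 3 rose in intact cells. Under the same rule 30.8% of all tested genes rose and 31.3% fell in deficient cells, and 26.6% rose in intact cells. Of the further genes 29 and 37 fell in deficient and intact cells, beside 31.3% and 28% of all tested genes. Under AA 42 of the further genes were higher in deficient cells, beside 20.9% of all tested genes. With each library left out in turn, the medians ran from -0.0608 to -0.0237 in deficient cells, 0.0952 to 0.139 for the difference and 0.0885 to 0.16 under AA, and 0 to 1 further genes were lower under PBS, 1 without intact AA replicate 2.

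The replicate numbers did not pair the libraries: over 18 same-numbered pairs the correlation of deviations ran from -0.169 to 0.12, 1 was over 0.1, and 5 of 12 libraries correlated best with their own number. With the replicate block, 12 of the 37 rose and 16 fell in deficient cells, beside 36.7% and 37.2% of all tested genes. In intact cells 6 rose and 23 fell, beside 34.1% and 34.9%. Under AA 19 were higher in deficient cells, beside 28.4%, the added one being NOP16 (adjusted p = 0.0485). At these depths the standard errors of the 37 genes under PBS were 0.021 to 0.10. A call needs a difference well beyond its standard error, so differences between genotypes under PBS of that size or somewhat larger were not detectable.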
